A study of Mus musculus with 8 samples.

Results

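The regions described here are the peaks of acetylated histone H3 (H3ac) called at the ends of a differentiation time course, on day 2 and on day 6. All peaks of the deposited day 2 and day 6 H3ac lists were taken, chosen by day and antibody and not by any measured value. They number 17368 on day 2 and 5553 on day 6, together 22921 of the 41152 peaks in the 4 lists of the series. The starting material was a 129/Ola mouse embryonic stem cell culture, plated on gelatin and differentiated in N2B27, a serum-free medium in which such cells lose pluripotency and many become neural progenitors. Chromatin was precipitated with an antibody against acetylated histone H3, and each day gave 1 ChIP library with 1 input library. The series also holds H3ac on day 4 and, on day 2, HDAC1 carried as a FLAG-tagged protein. The labels do not say whether the cells used for H3ac carried that tag.

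Acetylation of the tails of histone H3 is carried out by acetyltransferases such as Ep300 and Kat2a and is removed by deacetylases such as HDAC1. It loosens the contact of the nucleosome with DNA, is read by bromodomain proteins such as Brd2, and marks active promoters and enhancers. At an active promoter the nucleosomes on either side of the transcription start carry the mark, and the start itself often lies in a stretch with few nucleosomes. An antibody against the whole acetylated tail does not separate the lysines that carry the group.

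With 1 library a day there is no replicate check and no test of a difference between days. Intervals given beside shares are 95% Wilson intervals, which take in the counting of peaks or genes and nothing of the spread between cultures. The score is the authors' own, on a scale that the sources used here do not give, and it served only to rank peaks within 1 list. The lists give no read depth, so a region without a peak may still be acetylated. In bulk chromatin, a mark in fewer cells and a weaker mark in each cell cannot be told apart. After 10 day 2 peaks and 1 day 6 peak off the placed chromosomes were left out, 17358 and 5552 peaks remained. The median day 6 peak was 3.21 times as wide as the median day 2 peak, and this difference runs through each result below.

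A protein-coding gene counted as marked if its first or last base had a peak no more than 1 kb away. Promoter sequence, from RefSeq on build GRCm38.p6 (the coordinates of mm10), is printed for 7 genes taken as examples of peak positions, not of the typical promoter of a class. Each line holds the 250 bases before the gene's start, 5′ to 3′ on the gene's strand, with every CpG in capitals, because CpG content differed between marked and unmarked genes. Pou5f1 (chr17:35505782-35506031, plus strand) and Hells (chr19:38930740-38930989, plus) had a day 2 peak over the start and no day 6 peak in the gene or within 10 kb. Sox2 (chr3:34649745-34649994, plus) and Arrdc3 (chr13:80883134-80883383, plus) had peaks on both days, with the start outside every day 2 peak and inside a day 6 peak. Kdm2b (chr5:122989100-122989349, minus) had the start inside a peak on both days. Meis1 (chr11:19018970-19019219, minus) and Zfp503 (chr14:21989602-21989851, minus) had a peak over the start on day 6 only.
Pou5f1: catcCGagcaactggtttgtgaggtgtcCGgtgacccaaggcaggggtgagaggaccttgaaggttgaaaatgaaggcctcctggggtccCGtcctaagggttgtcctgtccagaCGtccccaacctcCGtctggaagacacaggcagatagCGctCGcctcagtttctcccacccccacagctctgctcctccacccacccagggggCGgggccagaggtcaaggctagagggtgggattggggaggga
Hells: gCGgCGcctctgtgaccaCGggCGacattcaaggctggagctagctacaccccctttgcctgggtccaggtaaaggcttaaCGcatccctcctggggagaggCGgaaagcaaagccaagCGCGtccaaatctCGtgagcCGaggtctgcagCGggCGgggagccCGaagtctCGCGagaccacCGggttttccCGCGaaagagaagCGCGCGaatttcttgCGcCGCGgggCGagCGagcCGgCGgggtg
Sox2: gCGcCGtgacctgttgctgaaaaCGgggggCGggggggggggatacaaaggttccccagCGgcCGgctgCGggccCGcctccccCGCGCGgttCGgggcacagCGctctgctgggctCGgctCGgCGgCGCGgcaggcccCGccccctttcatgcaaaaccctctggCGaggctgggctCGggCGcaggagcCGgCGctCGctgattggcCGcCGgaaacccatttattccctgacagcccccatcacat
Arrdc3: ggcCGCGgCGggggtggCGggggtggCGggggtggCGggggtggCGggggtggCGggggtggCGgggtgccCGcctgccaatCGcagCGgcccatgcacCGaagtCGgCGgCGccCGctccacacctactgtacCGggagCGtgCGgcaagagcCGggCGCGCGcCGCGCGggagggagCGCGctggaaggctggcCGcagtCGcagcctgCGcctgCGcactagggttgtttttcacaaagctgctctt
Kdm2b: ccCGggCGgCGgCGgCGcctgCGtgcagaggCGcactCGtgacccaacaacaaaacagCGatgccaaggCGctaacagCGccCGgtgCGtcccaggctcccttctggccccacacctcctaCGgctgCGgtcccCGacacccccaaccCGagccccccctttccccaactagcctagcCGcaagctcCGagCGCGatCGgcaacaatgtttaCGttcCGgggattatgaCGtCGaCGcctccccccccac
Meis1: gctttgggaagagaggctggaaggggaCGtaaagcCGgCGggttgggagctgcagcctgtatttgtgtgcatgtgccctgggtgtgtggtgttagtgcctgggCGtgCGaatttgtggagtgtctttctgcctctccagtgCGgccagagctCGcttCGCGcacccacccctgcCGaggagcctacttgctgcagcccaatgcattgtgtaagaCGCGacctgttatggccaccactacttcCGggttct
Zfp503: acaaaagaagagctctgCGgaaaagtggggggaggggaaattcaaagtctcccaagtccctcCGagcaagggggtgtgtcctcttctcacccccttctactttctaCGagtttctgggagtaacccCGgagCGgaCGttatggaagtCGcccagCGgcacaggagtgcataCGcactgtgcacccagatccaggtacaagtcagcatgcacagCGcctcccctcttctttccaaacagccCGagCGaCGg
The Arrdc3 stretch held 33 CpG, that of Hells 28, those of Sox2 and Kdm2b 27 each, those of Meis1 and Zfp503 13 each and that of Pou5f1 8.

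The question the comparison addresses is how the acetylated regions of early differentiation relate to those present 4 days later. Most day 6 peaks lay over a region already called on day 2, and with the full lists some overlapped several day 2 peaks at once. Of 5552 day 6 peaks, 4417 (79.6%, 78.5 to 80.6%) overlapped at least 1 day 2 peak and 1394 (25.1%, 23.98 to 26.27%) spanned 2 or more. The last share was 6.56% with equal numbers of top-scoring peaks and 1.67% when peaks under 1 kb apart were joined. By number, 1135 day 6 peaks (20.4%, 19.4 to 21.5%) spanned 0 day 2 peaks, 3023 spanned 1, 1159 spanned 2, 194 spanned 3, 38 spanned 4, and 3 spanned 5 or 6. Seen from day 2, 6063 peaks overlapped 1 day 6 peak, 14 touched 2, and 11281 (65.0%, 64.3 to 65.7%) overlapped none. Of the 6077 day 2 peaks that overlapped, 5288 (87.0%) lay wholly inside day 6 peaks, while 22 day 6 peaks lay wholly inside a day 2 peak. The bases in peaks on both days came to 5.36 Mb, which is 41.9% of the day 2 bases and 46.4% of the day 6 bases.

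Wider day 6 peaks spanned more day 2 peaks. The median width was 1328 bp for day 6 peaks spanning 0, 1776 bp for 1, 2552 bp for 2, 3415 bp for 3 and 4258 bp for 4. Among the narrowest 10% of day 6 peaks, with a median of 871 bp, 39.8% overlapped a day 2 peak and 0.721% spanned 2 or more. Among the widest 10%, with a median of 3835 bp, the shares were 90.3% and 64.6%. Score followed the same order: day 6 peaks in the lowest decile of score overlapped a day 2 peak in 64.3% of cases and those in the highest decile in 92.1%. Width and score moved together, the median width being 1441 bp in the lowest score decile and 2847 bp in the highest, and their parts were not separated. Day 2 peaks filled a median of 51.5% of a day 6 peak that spanned 1 of them, 61.9% where it spanned 2 and 67.6% where it spanned 3.

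**Figure D1:**
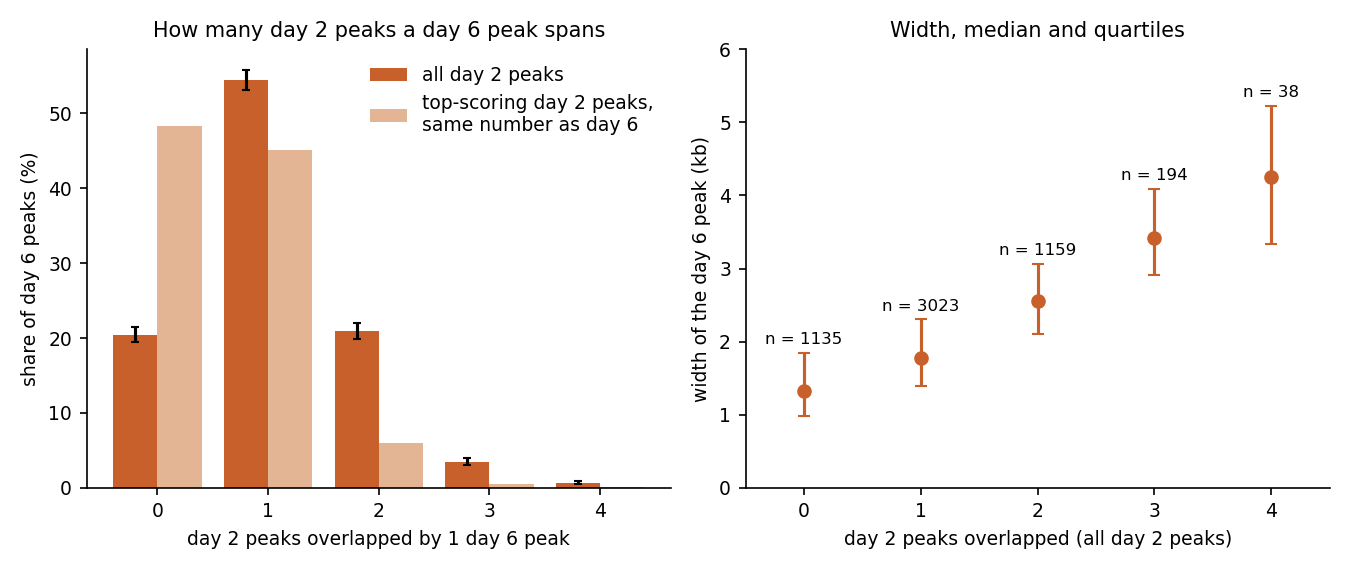
Left, share of the 5552 day 6 peaks (vertical axis, percent) by the number of day 2 peaks they overlap, against all day 2 peaks with 95% Wilson intervals (dark bars) and against the same number of top-scoring day 2 peaks (light bars); the share at 0 is 20.4% with the whole list and 48.3% with the top-scoring list. Right, width of the day 6 peaks in kb, as median and quartiles, for each number spanned, rising from a median of 1328 bp at 0 to 4258 bp at 4.

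About gene starts, the day 2 peaks left the start uncovered more often than the day 6 peaks did. Start sites were known for 3600 genes marked on both days, 1 start for each gene, the most upstream. In the day 2 list 48.2% of these genes had the position 400 bp upstream inside a peak, 40.3% the position 100 bp upstream, 47.3% the start itself and 76.0% the position 500 bp downstream, so coverage dipped just before the start. In the day 6 list the same positions were covered in 64.9%, 77.6%, 82.7% and 90.0% of the genes, with no dip. At 1 kb downstream the shares were 46.8% on day 2 and 82.4% on day 6, and at 1 kb upstream 23.2% and 40.4%. Both lists fell off within a few kb, to 7.33% and 19.4% at 2 kb downstream and 1.44% and 1.78% at 5 kb downstream. Genes marked on day 2 only, also 3600, showed a shoulder in place of the dip, with 31.7% covered on day 2 at 400 bp upstream, 36.1% at 100 bp upstream and 46.7% at the start. The 531 genes marked on day 6 only had 63.1% covered on day 6 at 100 bp upstream, 69.5% at the start and 85.3% at 500 bp downstream.

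**Figure D2:**
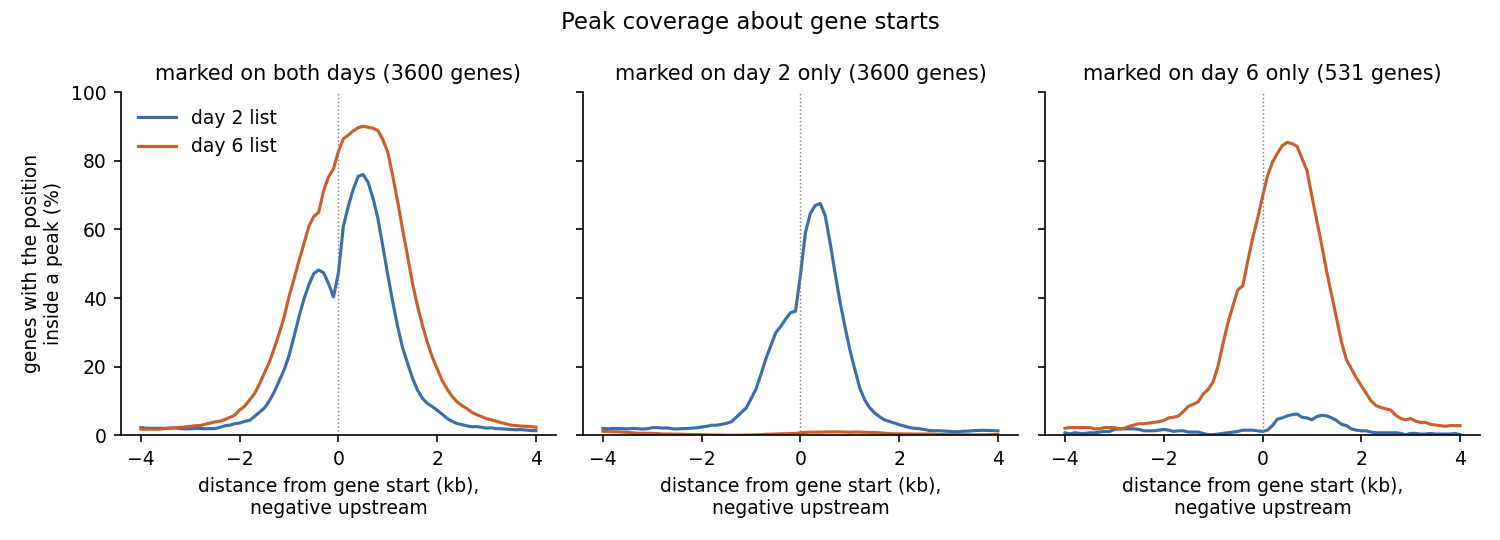
Percent of genes (vertical axis) whose position at a given distance from the gene start (horizontal axis, kb, negative upstream) lies inside a day 2 peak (blue) or a day 6 peak (orange), for genes marked on both days, on day 2 only and on day 6 only. In genes marked on both days the blue line has a minimum of 40.3% at 100 bp upstream, between maxima of 48.2% and 76.0%, and the orange line has a single maximum of 90.0%.

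The same gap was seen gene by gene. Of 3513 starts inside a day 6 peak, 1686 (48.0%, 46.3 to 49.6%) were also inside a day 2 peak. Another 579 (16.5%, 15.3 to 17.7%) lay between day 2 peaks within 1 kb on both sides, 753 (21.4%) had a day 2 peak downstream only, 128 (3.64%) upstream only, and 367 (10.4%) had none within 1 kb. Starts flanked on both sides had promoters with a median of 30 CpG and 67.3% G+C in 300 bases (250 before to 50 after the start), against 23 CpG and 60.3% G+C for starts inside a day 2 peak. The part of base composition in the gap was not tested. With the day 2 list reduced to its 5552 top-scoring peaks, 37.4% of the starts were inside a day 2 peak and 5.52% were flanked on both sides. Where the start was inside a peak on both days, the day 2 peak reached a median of 281.5 bp upstream and 799 bp downstream, and the day 6 peak 899.5 bp and 1409 bp.

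Day 6 peaks that joined exactly 2 day 2 peaks showed what lay between them. The gap between the paired day 2 peaks was short, with a median of 178 bp (quartiles 83 and 349.5 bp). It held a start site in 381 of 1159 pairs (32.9%, 30.2 to 35.6%), while either of the paired peaks held one in 552 (47.6%). Here every known start of a gene counted, not the most upstream alone. Per kb, the gaps held 1.41 start sites, the paired day 2 peaks 0.371 and the day 6 peaks around them 0.409. A start site lay in 39.0% of day 6 peaks spanning 0 day 2 peaks, 59.2% of those spanning 1, 77.4% of those spanning 2 and 77.0% of those spanning 3 or more. Wider peaks hold more of everything, so this order is not separate from that of width.

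The day 6 peaks that spanned most day 2 peaks lay at genes for chromatin regulators, RNA-binding proteins and a signalling repressor. The count was highest, at 6, for a 10551 bp peak on chromosome 5 (chr5:123134304-123144854) over the neighbours Setd1b, a histone H3K4 methyltransferase, and Rhof, a small GTPase, although its score ranked only 3777 of day 6. A 5451 bp peak at Ctbp2, a transcriptional corepressor, ranked 75 and spanned 5. A 7406 bp peak at Tgif1, a homeodomain repressor of TGF-beta signalling, ranked 246 and also spanned 5, whose widths ran from 484 to 2472 bp. Of the 38 spanning 4, 4 high-ranked ones are named here. They lay at Kdm2b, the CpG-island binding subunit of a Polycomb complex (7556 bp, rank 4), at Trim71, a stem cell ubiquitin ligase and RNA-binding protein (7027 bp, rank 11), at Hnrnpu, a nuclear RNA-binding protein (5178 bp, rank 21), and inside Ctnnd1, a catenin gene, away from its ends (3572 bp, rank 74).

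Single genes show how the pieces fit. At Sox2, a transcription factor gene of both pluripotent and neural cells, 3 day 2 peaks of 946, 1955 and 648 bp ranked 3365, 1193 and 7028, and 1 day 6 peak of 10001 bp (chr3:34647829-34657829, rank 25) covered them all. A second day 6 peak of 6188 bp, rank 2134, lay downstream. The Sox2 start, at position 34649995, and the 250 bases printed for it lay in the day 2 gap between 34649734 and 34650487. At Kdm2b the 4 day 2 peaks were 665, 1633, 1229 and 737 bp wide and ranked 7317, 226, 1739 and 5601. At Pou5f1, the gene of the pluripotency factor Oct4, a 3596 bp day 2 peak over the start ranked 32 and 3 more day 2 peaks lay within 10 kb, while the nearest day 6 peak was 162059 bp away. Zfp503, a zinc finger repressor gene of the developing brain, had adjoining day 6 peaks of 4181 and 6515 bp (ranks 4686 and 102), with the nearest day 2 peak 80020 bp away. At Meis1, a partner of Hox proteins, a 7682 bp day 6 peak over the start ranked 24, and the single day 2 peak within 10 kb of the gene, 536 bp wide, ranked 16392.

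**Figure D3:**
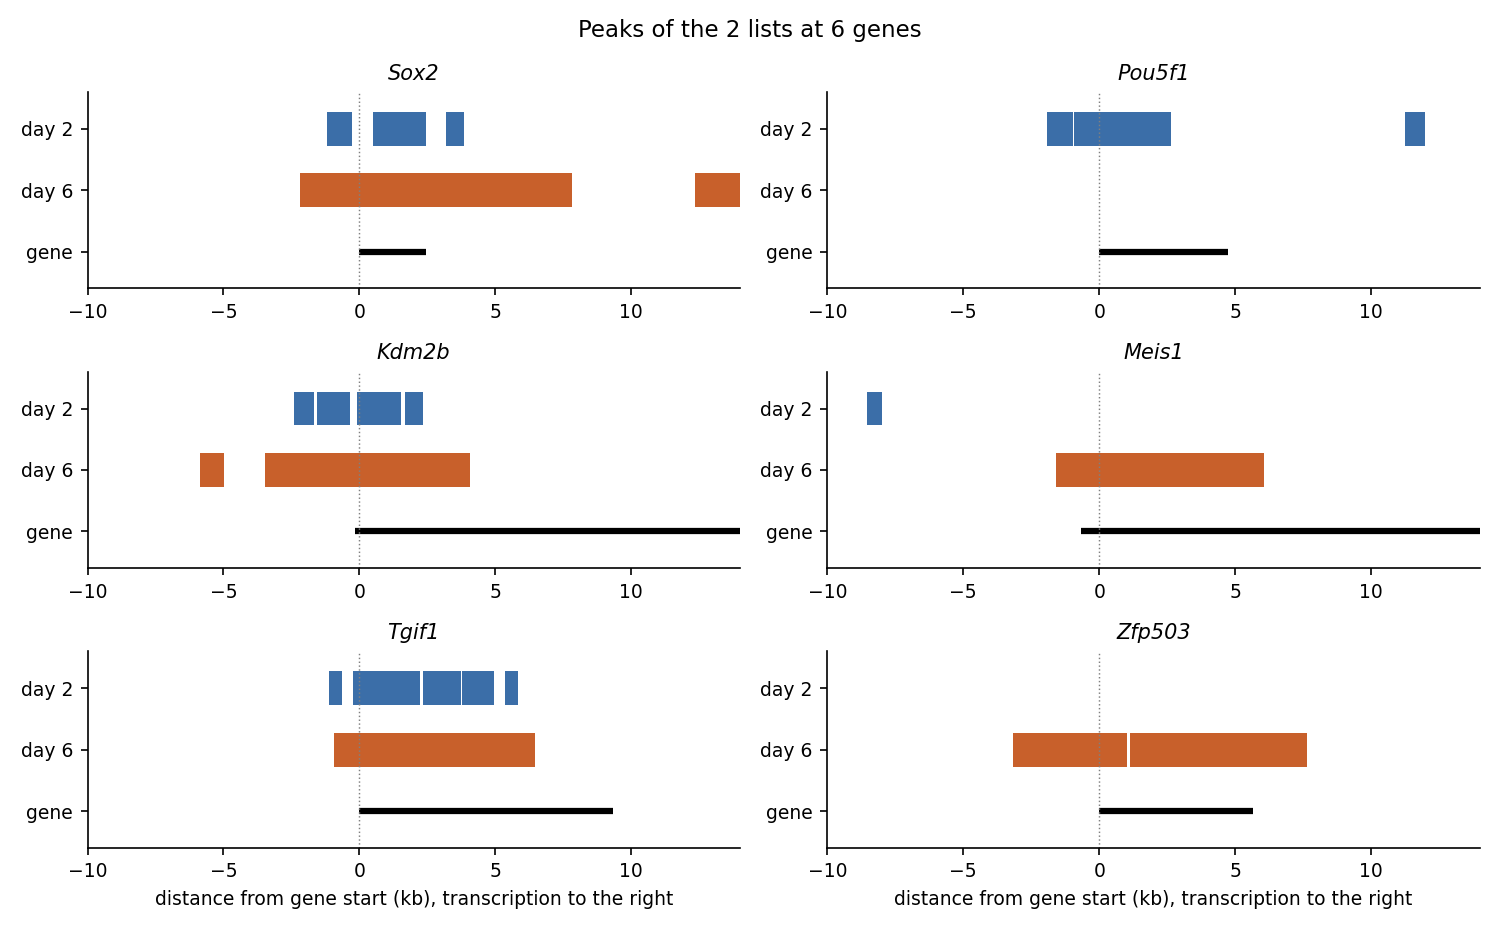
Day 2 peaks (blue), day 6 peaks (orange) and gene extent (black) at 6 genes, by distance from the gene start in kb with transcription to the right. At Sox2, Kdm2b and Tgif1 a single day 6 peak overlaps 3, 4 and 5 day 2 peaks; Pou5f1 has day 2 peaks alone, and Meis1 and Zfp503 have a day 6 peak over the start where day 2 has none.

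Peaks found at 1 end of the time course differed from shared ones in width, rank and place. The 11281 peaks found on day 2 only had a median width of 544 bp, against 770 bp for the 6077 shared day 2 peaks, and the 1135 found on day 6 only had 1328 bp against 2044 bp for the 4417 shared ones. Their median rank percentiles, where a low value is a high score, were 60.8 against 29.5 within day 2 and 66.7 against 45.7 within day 6. Shared peaks lay near gene ends in 70.0% (day 2) and 71.2% (day 6) of cases, peaks of day 2 only in 42.9% (42.0 to 43.9%) and peaks of day 6 only in 51.6% (48.7 to 54.5%). Outside protein-coding genes lay 20.5% of the day 2 only peaks and 11.98% of the day 6 only peaks, against 4.44% and 4.28% of the shared ones. Near misses were few on day 2, where 563 of the unshared peaks had a day 6 peak within 1 kb, and 9599 (85.1%) had none within 10 kb. On day 6, 233 of the unshared peaks had a day 2 peak within 1 kb and 715 (63.0%) had none within 10 kb.

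The day 4 and HDAC1 lists, which the classes did not use, overlapped shared peaks more often than unshared ones when all peaks were taken. Shared peaks were also wider, and the part of width was not separated. Among top-scoring day 2 peaks the HDAC1 difference was absent. The day 4 H3ac list overlapped 81.4% of shared day 2 peaks and 88.8% of shared day 6 peaks, 33.4% (32.6 to 34.3%) of day 2 only peaks and 51.7% (48.8 to 54.6%) of day 6 only peaks. Day 2 HDAC1 peaks overlapped 11.6% of shared day 2 peaks and 6.47% of day 2 only peaks, and 16.6% of shared day 6 peaks and 5.20% of day 6 only peaks. For day 2 the classes were also compared at higher rank. Within the 5552 top-scoring day 2 peaks, day 4 overlapped 92.8% of the 3252 shared peaks and 76.7% of the 2300 others, gene ends lay near 74.7% and 73.8%, and HDAC1 overlapped 16.2% and 16.3%.

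The highest-ranked peaks of each class, which were chosen after their values were seen, showed what the ends did not share. On day 2 the peaks without a day 6 partner began with a pair outside protein-coding genes on chromosome 2 (chr2:98666105-98667467, rank 1, and chr2:98661795-98663125, rank 4). Another lay on chromosome 9 (chr9:35305085-35305988, rank 6). These 3 were in the day 4 list at ranks 89, 4167 and 2169 and in neither the day 6 nor the HDAC1 list. The stretch on chromosome 2 is often left out of mouse ChIP-seq analyses because unrelated libraries pile up reads there, and what it reflects here was not tested. Then came Rarg, a retinoic acid receptor, whose 4359 bp peak within the gene ranked 16, Frs3, an adaptor of FGF receptors (rank 25), Pou5f1 (32), and the translation factor Eif4b (44). Hsp90ab1, a chaperone (72), Hells, a chromatin remodeller needed for DNA methylation (84), the elongation factor Eef2 (86), Rps15 (95), Rpl8 (104) and Asxl2, a Polycomb-group partner (105), followed. Of the 20 highest, 16 lay at protein-coding genes and 19 were in the day 4 list, Pou5f1 being the exception.

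The highest-ranked day 6 peaks without a day 2 partner were chosen in the same way. Cdon, a Hedgehog co-receptor, held the peak ranked 6 (chr9:35421579-35426899). A day 2 peak of rank 13965 (chr9:35420558-35421012) lay just outside it, under a second day 6 peak of 663 bp and rank 4016. Meis1 ranked 24, and a peak over Hoxb2 that came within 1 kb of an end of Hoxb3 ranked 26. A long noncoding RNA gene, Mir99ahg, held those ranked 31 and 92. Then came the Wnt receptor gene Fzd3 (46), the nuclear receptor gene Nr6a1, a repressor of Pou5f1 (76), Zfp503 (102), Peli1, a ubiquitin ligase (107), Mfsd14a (137), the nuclear receptor gene Nr2f2 (174), Hoxa3 (177), Net1 (220), Irx2 (229), Zfp423 (231) and the Hippo kinase gene Lats2 (239). Of the 20 highest, 16 lay at protein-coding genes and 18 were in the day 4 list. None of the 20 highest in either class held a small nucleolar RNA gene, while shared peaks did. Among the 100 highest peaks 20 did so on day 2 and 10 on day 6, against 0.334% and 1.13% of the whole lists. High-ranked shared peaks of day 6 lay at Slc3a2 with Snhg1 (rank 1, spanning 3 day 2 peaks), Arrdc3, an arrestin-domain gene (rank 2, spanning 2) and Kdm2b (rank 4).

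Across the 21887 protein-coding genes, 40.6% were marked on day 2 and 23.3% on day 6. The classes held 20.2% on both days (4429 genes), 20.3% on day 2 only (4449) and 3.05% on day 6 only (667). Of the day 2 genes, 49.9% were marked again on day 6, from 25.9% in the lowest decile of day 2 score to 78.8% in the highest. Genes marked again had a median day 2 rank of 3267 and the others 6410. Of the 667 genes marked on day 6 only, 379 (56.8%) had no day 2 peak in the gene or within 10 kb. In 93 (13.9%) the day 6 peak did overlap a day 2 peak, which lay beyond 1 kb of the gene's end. Of the 4449 marked on day 2 only, 3756 (84.4%) had no day 6 peak in the gene or within 10 kb. By chromosome the share marked again ran from 44.0% on chromosome 19 to 58.9% on chromosome 3, with 56.4% on X, leaving out Y, which had a single day 2 gene.

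Gene functions are described by 26 lists, each read against those background shares. The lists were written with earlier results of these data known, so a count is a description and no support for a direction. Among 27 pluripotency genes, 18 (66.7%) were marked on day 2 and 8 (29.6%) on day 6, against 40.6% and 23.3% of all genes. Of the 18, 7 (38.9%, 20.3 to 61.4%) were marked again, and the interval holds the background of 49.9%. The 11 marked on day 2 only included Pou5f1, the co-activator Utf1 (1710 bp, rank 198), the TGF-beta ligand gene Gdf3 (2177 bp, rank 285) and Zscan10 (3398 bp, rank 284, a peak shared with Zfp13). Dppa4, a chromatin-bound factor of early development, was there too (1095 bp, rank 4096). Nanog and Klf4 were also in this class, with day 2 peaks of 523 and 527 bp at the low ranks 16386 and 16060. Around Nanog a second day 2 peak of 706 bp, rank 5135, overlapped a 1488 bp day 6 peak of rank 4906, both more than 1 kb from the gene. The 7 marked on both days included Sox2, Trim71, Sall4 (day 6 peak 6767 bp, rank 729) and the RNA-binding let-7 repressor Lin28a (4482 bp, rank 2734), and in 5 of the 7 the day 6 peak spanned 2 or more day 2 peaks, against 35.6% of all genes marked on both days. Day 6 peaks on this list were also wider, with a median of 3360 bp against 2116 bp for all marked genes. Klf5 was marked on day 6 only, near the end of the list (rank 5535 of 5552). Esrrb, Zfp42 and Lefty1 had no gene-end peak on either day, the nearest day 2 peak to Zfp42 lying 1006 bp from its nearer end.

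The primed epiblast follows naive pluripotency in the embryo. In a list of 18 of its genes, 15 (83.3%) were marked on day 2 and 8 (44.4%) on day 6, against 40.6% and 23.3% of all genes. Of the 15, 7 (46.7%, 24.8 to 69.9%) were marked again, and the interval holds the background of 49.9%. Marked on day 2 only were 8, among them Pou3f1 (2256 bp, rank 491), the DNA methyltransferase gene Dnmt3b (1827 bp, rank 654), Lef1 (2943 bp, rank 271), Foxd3 (rank 2908), Otx2 (rank 5975) and Fgf5 (rank 9855). On both days 7 were marked, and in 6 of them the day 6 peak spanned several day 2 peaks, against 35.6% of all genes marked on both days. These include Zic2 (day 6 peak 8225 bp, rank 482), Zic5 (7644 bp, rank 28, spanning 3), Sox4 (5279 bp, rank 208, spanning 4) and the ERK phosphatase gene Dusp6 (5028 bp, rank 2462, spanning 3). Day 6 peaks on this list had a median width of 5298.5 bp, against 2116 bp for all marked genes, and the count was not separated from width. Cdh2, the N-cadherin gene, was marked on day 6 only, with a 4955 bp peak of rank 340 and the nearest day 2 peak 1438025 bp away. Cdh1, the E-cadherin gene, was marked on day 2 only (735 bp, rank 3190).

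Among 40 neural progenitor genes, 12 were marked on day 2 and 11 on day 6. The share marked on day 6 was 27.5%, against 23.3% of all genes. Of the 12 day 2 genes, 4 (33.3%, 13.8 to 60.9%) were marked again, and the interval holds the background of 49.9%. A further 7 (17.5%) were marked on day 6 only, against 3.05% of all genes. Once the day 2 list was cut to the length of day 6, this class held 9 of the 40, against 9.1% of all genes. The 7 included Meis1, and Zic1 and Zic4, neighbours whose ends shared a 6848 bp peak of rank 772. Day 2 marks on this list were narrow and low, with a median width of 537.5 bp and a median rank of 11075, whereas the day 6 peaks had a median of 4450 bp and a rank of 1380. For all marked genes the medians were 807 bp and 4693.5 on day 2 and 2116 bp and 2483.5 on day 6. Hes1, a Notch effector (1258 bp, rank 3169), Gbx2 (rank 6221), Notch1 (rank 5877) and Nes, the nestin gene (670 bp, rank 9823), were marked on day 2 only. Meis2 joined the ends in pieces. Its day 2 peaks were 504 to 607 bp wide at ranks 8261 to 16589, and its day 6 peaks were 5828, 3745 and 5589 bp at ranks 12, 33 and 1380. Within Pax6, away from its ends, 3 day 2 peaks of 468 to 700 bp lay under a 4927 bp day 6 peak of rank 1216. Sox1 had no peak within 10 kb on either day.

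Of 39 Hox genes, 2 were marked on day 2 and 5 on day 6, all in the anterior part of the A and B clusters. Hoxa2 was marked on both days, with a day 2 peak at rank 16997 and a day 6 peak of 6601 bp at rank 177. Hoxa3 shared the 6601 bp peak, and Hoxb2 and Hoxb3 shared the 7413 bp peak of rank 26. These 3 genes were marked on day 6 only. Other fates were little marked at either end: 4 of 21 neuron genes on day 2 and 2 on day 6, 3 and 2 of 24 mesendoderm genes, and 2 and 1 of 20 extraembryonic and trophoblast genes. Sparc, a matrix protein gene of the last list, was marked on day 6 only (3167 bp, rank 1352). The counts are small and each falls below the background share of its day.

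Signalling genes are given by pathway, and no difference between pathways was tested. Of 20 BMP genes 6 were marked on day 2 and 9 on day 6, and all 6 were among the 9. The 3 added were the receptor gene Bmpr1b (1657 bp, rank 3758) and the BMP target genes Id1 (5574 bp, rank 1248) and Id2 (4706 bp, rank 2826), with no day 2 peak within 10 kb of any of them. The receptor gene Bmpr2 and the effector gene Smad1 had low day 2 ranks (12984 and 9790) and day 6 ranks of 583 and 631. Of 21 Nodal and TGF-beta genes 15 (71.4%) were marked on day 2 and 11 (52.4%) on day 6. Of the 15, 10 (66.7%, 41.7 to 84.8%) were marked again, and the interval holds the background. The ligand genes Nodal (675 bp, rank 5805) and Tgfb1 (rank 4602) and the effector gene Smad3 (rank 11072) were marked on day 2 only. The inhibitors Smad7 (day 6 peak 6407 bp, rank 142, spanning 3 day 2 peaks) and Skil (1740 bp, rank 575) were marked on both days with Tgif1, and Smad2 on day 6 only with a peak that overlapped a day 2 peak 1415 bp from the gene's end.

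Of 32 Wnt genes 21 (65.6%) were marked on day 2 and 10 (31.25%) on day 6, against 40.6% and 23.3% of all genes. Of the 21, 9 (42.9%, 24.5 to 63.5%) were marked again, and the interval holds the background of 49.9%. Day 2 only genes included the transcription factors Lef1 and Tcf7l1 (rank 1748) and the receptors Fzd5 (rank 3101) and Fzd8 (rank 2423). Marked on both days were Ctnnb1, the gene of beta-catenin (day 2 rank 15639, day 6 rank 614), its destruction-complex partners Apc (1504 and 185) and Gsk3b (1753 and 579), and the transducer Dvl2 (1175 and 2584). Fzd3 was marked on day 6 only. Of 23 FGF and ERK genes 17 (73.9%) were marked on day 2 and 11 (47.8%) on day 6. Of the 17, 9 (52.9%, 31.0 to 73.8%) were marked again, also with the background inside the interval. The ligand gene Fgf4 (rank 2239), the target genes Spry4 (rank 1034) and Etv5 (rank 3363) and Myc (rank 699) were marked on day 2 only, and the feedback inhibitors Spry2 (206 and 466) and Spred2 (395 and 2550) on both days. The receptor gene Fgfr3 was marked on day 6 only, at the low rank 5292. In the retinoic acid list 4 of 15 genes (26.7%) were marked on day 2 and 2 (13.3%) on day 6, each below the share of all genes. The receptor genes Rxrb (rank 313) and Rarg were marked on day 2 only, Rdh10, an enzyme of retinoic acid synthesis whose peak also reached Rpl7, on both days, and the binding protein gene Crabp2 (4018 bp, rank 1456) on day 6 only. The mark of Rarg came from low-scoring peaks near its ends and not from its peak of rank 16. With equal numbers of top-scoring peaks Rarg was marked on neither day, as were other low-ranked day 2 only genes, which are named below.

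Of the day 2 genes, those for chromatin regulation were marked again in 57.1% (36.5 to 75.5%) of cases for Polycomb and 67.7% (50.1 to 81.4%) for deacetylase and acetyltransferase complexes, and the first interval holds the background of 49.9%. Their median day 2 ranks were 4674 and 3383, against 4693.5 for all day 2 genes. Of 25 Polycomb genes 21 were marked on day 2 and 14 on day 6, 12 of them on both. The last group included Kdm2b, Phc1 (day 2 rank 8, day 6 rank 555), Jarid2 (193 and 902) and Eed (283 and 490), and the subunit genes Pcgf3 (rank 693), Pcgf6 (rank 4001) and Pcgf1 (rank 6449) were marked on day 2 only. Of 34 genes of deacetylase and acetyltransferase complexes, 31 were marked on day 2, 22 on day 6 and 21 on both. Ep300 (439 and 104), Brd2 (5 and 91), Ncor1 (207 and 110) and Chd4 (375 and 2457) were marked on both days, and the acetyltransferase genes Kat2a (rank 3079), Kat7 (rank 2045) and Kat8 (rank 2911) on day 2 only.

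Several lists of general cell function were marked again on day 6 above 49.9%. Over all genes that share rose with day 2 score, from 25.9% in the lowest decile to 78.8% in the highest. Median day 2 ranks were 196 for cytosolic ribosomal proteins, 926 for cell cycle and 1674 for splicing and hnRNP genes. They were 4845 for histone genes and 2741 for oxidative phosphorylation, against 4693.5 for all day 2 genes. The parts of rank and function were not separated. Of 51 replication-dependent histone genes marked on day 2, 50 (98.0%, 89.7 to 99.7%) were marked on day 6, where the list had 54 of 62, and many share peaks because the genes lie in clusters. Cytosolic ribosomal protein genes kept 70 of 76, splicing and hnRNP genes 52 of 61 (85.2%, 74.3 to 92.0%) and cell cycle genes 19 of 27 (70.4%, 51.5 to 84.1%). In the full lists, those nearer 49.9% were mitochondrial ribosomal proteins with 43 of 70 (61.4%), the proteasome with 22 of 35 (62.9%), oxidative phosphorylation with 37 of 73 (50.7%, 39.5 to 61.8%), and glycolysis with 7 of 15. The 6 ribosomal protein genes marked on day 2 only included Rps15 (rank 95), Rpl8 (104), Rpl34 (201) and Rps21 (502). In the cell cycle list Mycn (42 and 749), Ccnd1 (30 and 2852) and Cdk4 (93 and 3808) were marked on both days, and the mitotic genes Plk1 (rank 217), Cdc20 (1369) and Ccnb2 (2129) on day 2 only. Among 367 zinc finger genes of the Zfp series 224 were marked on day 2, 123 on day 6 and 100 on both (44.6%, 38.3 to 51.2%). Of 57 clustered protocadherin genes 7 (12.3%) were marked on day 2, at a median rank of 10633, and 0 on day 6. With equal numbers of top-scoring peaks 0 were marked on either day. With a peak anywhere in the gene or within 10 kb, 21 were marked on each day and 0 on day 2 alone. Of 1110 olfactory receptor genes 3 (0.27%) were marked on day 2 and 0 on day 6. For both lists the shares fall below the 40.6% and 23.3% of all genes. Among 20 adult tissue genes the only mark was at Sftpc on day 6, in a peak it shared with Bmp1.

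**Figure D4:**
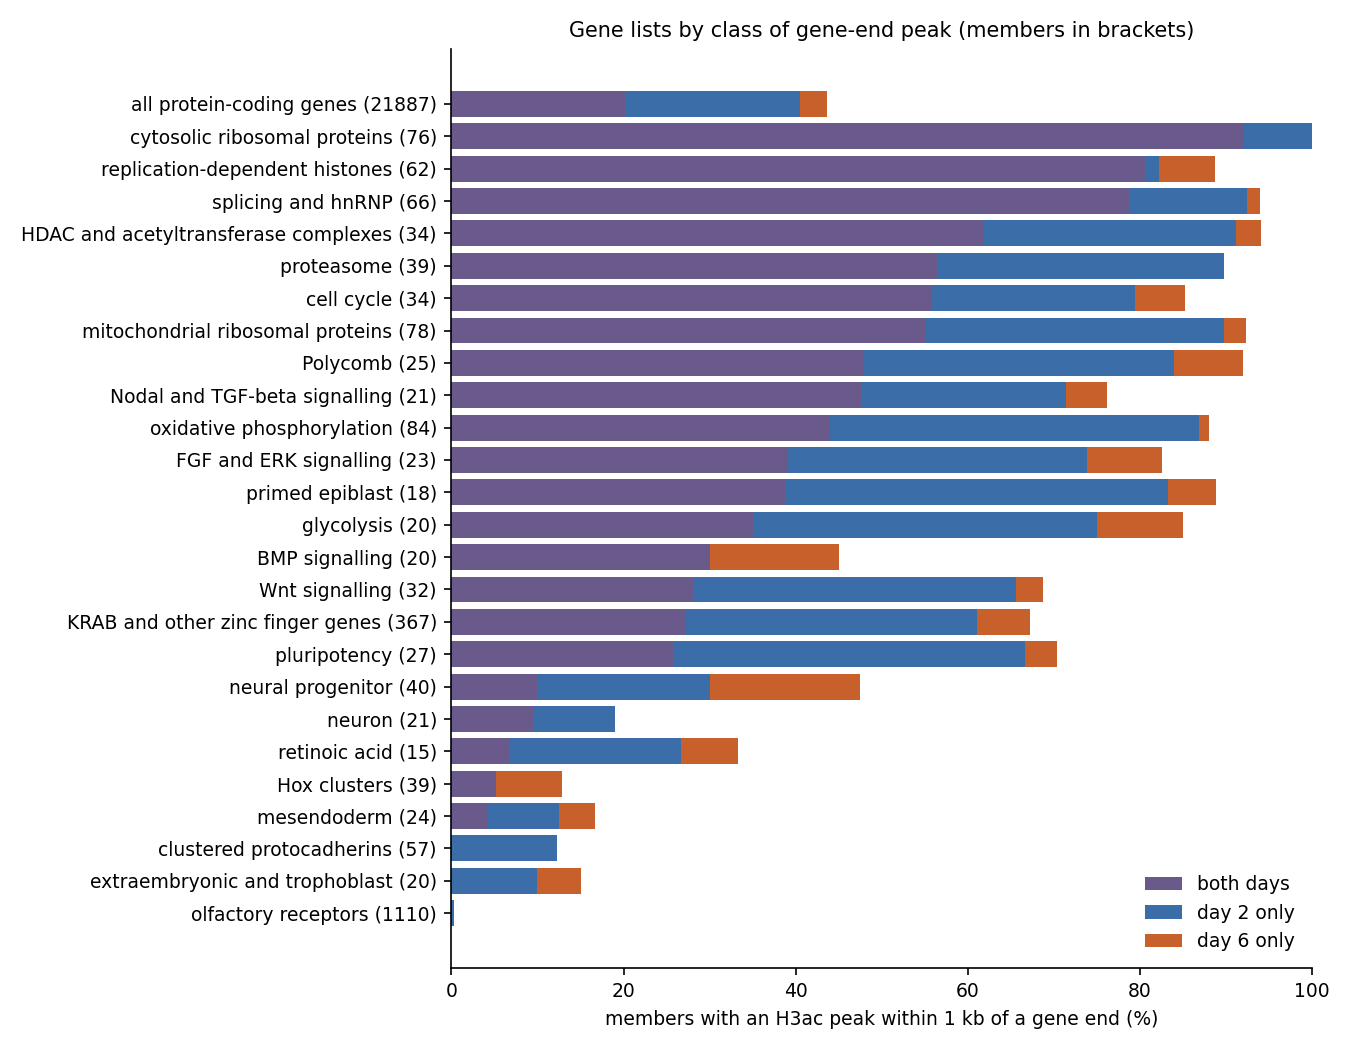
Share of the members of each gene list (horizontal axis, percent, with the number of members in brackets) with a gene-end H3ac peak on both days (purple), on day 2 only (blue) and on day 6 only (orange), with all 21887 protein-coding genes at the top at 20.2%, 20.3% and 3.05%. Ribosomal protein, histone and splicing genes are mostly purple, and the orange share is 17.5% for neural progenitor genes and 15.0% for BMP genes.

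MicroRNA genes, taken up after the protein-coding values were seen, followed the same classes and are shown with their sequences. Of 1228 RefSeq microRNA genes, 151 (12.3%) had a day 2 peak within 1 kb, 78 (6.35%) a day 6 peak, 62 both, 89 day 2 only and 16 day 6 only. A hairpin can lie far from the start of its primary transcript and inside another gene, so a nearby peak is not a measure of the microRNA. Mature sequences from RefSeq were matched for 154 of the 167 genes with a peak. Those below belong to the loci described next, with the seed (bases 2 to 8) in capitals.
miR-302b-3p: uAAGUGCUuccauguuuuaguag
miR-302d-3p: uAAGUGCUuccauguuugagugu
miR-294-3p: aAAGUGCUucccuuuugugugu
miR-291a-3p: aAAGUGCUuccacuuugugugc
miR-295-3p: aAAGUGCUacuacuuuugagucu
miR-17-5p: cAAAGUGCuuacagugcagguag
miR-106a-5p: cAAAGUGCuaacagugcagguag
miR-9-5p: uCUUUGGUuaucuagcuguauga
miR-219a-5p: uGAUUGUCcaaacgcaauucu
miR-92b-3p: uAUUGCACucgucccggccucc
miR-367-3p: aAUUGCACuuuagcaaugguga
let-7i-5p: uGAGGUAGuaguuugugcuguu
let-7c-5p: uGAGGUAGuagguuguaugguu
MicroRNAs with the seed AAGUGCU, known for their abundance in pluripotent cells, came from both classes. The cluster of miR-290 to miR-295 on chromosome 7 had a 2319 bp day 2 peak of rank 343 and a 2221 bp day 6 peak of rank 4695, whereas the miR-302 and miR-367 cluster on chromosome 3, which lies within Larp7, had a 505 bp day 2 peak of rank 15321 and none on day 6. The related seed AAAGUGC was held by miR-17 on chromosome 14, with peaks on both days (ranks 10370 and 609), and by miR-106a on the X chromosome, with a day 2 peak alone (rank 4792).

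Single mature microRNAs had copies in different classes. Mature miR-9-5p, a regulator of neural progenitors, is encoded by Mir9-1 (chr3:88215598-88215686), with a 537 bp peak on day 2 only (rank 6892), and by Mir9-2 (chr13:83738814-83738885), with a 2752 bp peak on day 6 only (rank 222). Mature miR-219a-5p came from Mir219a-1, marked on both days, and from Mir219a-2, marked on day 6 only (4465 bp, rank 1623, within Cercam). The seed AUUGCAC was shared by miR-92b, marked on day 6 only (3478 bp, rank 2396), and miR-367, marked on day 2 only. Of the let-7 family, Mirlet7i lay by a day 2 peak of rank 3010 and a day 6 peak of rank 81, and Mirlet7c-1 by a day 2 peak of rank 12175 alone.

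Promoter composition separated marked from unmarked genes more than the days from each other. Among the 17492 genes with promoter sequence (300 bases, 250 before to 50 after the start), the median was 24 CpG for genes marked on both days, 20 for day 2 only, 22 for day 6 only, 5 for neither and 13 for all. The share of day 2 genes marked again on day 6 was 39.7% with 0 to 4 CpG, 34.8% with 5 to 9, 46.7% with 10 to 14, 41.4% with 15 to 19, 48.3% with 20 to 24, 49.2% with 25 to 29 and 65.0% with 30 or more. Motifs were searched as exact letters on both strands. GGGCGG, the core bound by Sp factors, was in 69.8% of promoters marked on both days, 65.8% of day 2 only, 68.0% of day 6 only and 46.3% of all. CCGGAAG, an ETS factor core, was in 23.0%, 19.9% and 14.3% (11.6 to 17.5%) of the 3 classes and 11.9% of all, and TATAAA in 6.69%, 5.56% and 7.16%, against 13.3% of all. Each match is a description of the letters and not of a bound site.

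Equal numbers of top-scoring peaks were used as a check on the difference in length. Reduced to its 5552 highest peaks, the day 2 list had a median width of 1022.5 bp and covered 6.26 Mb, so it was still narrower than the day 6 list. With it 51.7% of day 6 peaks overlapped a day 2 peak, 364 (6.56%) spanned 2 or more and 2684 (48.3%) spanned 0, and 58.6% of the top-scoring day 2 peaks overlapped a day 6 peak. Genes marked on day 2 came to 23.1%, close to the 23.3% of day 6, with 14.2% on both days (3104), 8.89% on day 2 only (1946) and 9.1% on day 6 only (1992). Of these 1992 genes 1325 were marked in the full day 2 list, so most of the day 6 only genes of this setting had a lower-scoring day 2 peak. The share of day 2 genes marked again rose to 61.5%. By function, pluripotency genes had 5 on both days, 6 on day 2 only and 3 on day 6 only, Wnt genes 6, 5 and 4, neural progenitor genes 2, 1 and 9, BMP genes 1, 0 and 8, and histone genes 29, 1 and 25.

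The highest ranks were mostly held by different peaks on the 2 days. Of the 100 highest day 2 peaks 87 overlapped some day 6 peak and of the 100 highest day 6 peaks 91 some day 2 peak, but 16 overlapped a peak within the other list's 100. Among the 1000 highest, 757 and 899 overlapped any peak of the other day, and 287 day 2 peaks (28.7%, 25.98 to 31.58%) overlapped one of the 1000 highest of day 6. Of the 225 genes named by rule, 115 kept their class under all 6 alternatives of list length, score, window and width and 3 under 2 of them. Pou5f1, Utf1, Dppa4, Fgf4, Pou3f1, Dnmt3b and Cdh1 (day 2 only), Cdh2 (day 6 only) and Sox2 (both days) kept their class under all 6. Meis1 did so under 4. It was lost when every peak was set to the median day 2 width and marked on both days when peaks within 10 kb counted. Klf4 kept its class under 3 and Nanog under 2. Equal numbers of top-scoring peaks left Klf4 and Nanog marked on neither day. The same setting did so for Otx2, Fgf5, Nodal, Smad3, Nes, Notch1, Gbx2, Pcgf1 and Rarg, all day 2 only in the full lists.

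**Figure D5:**
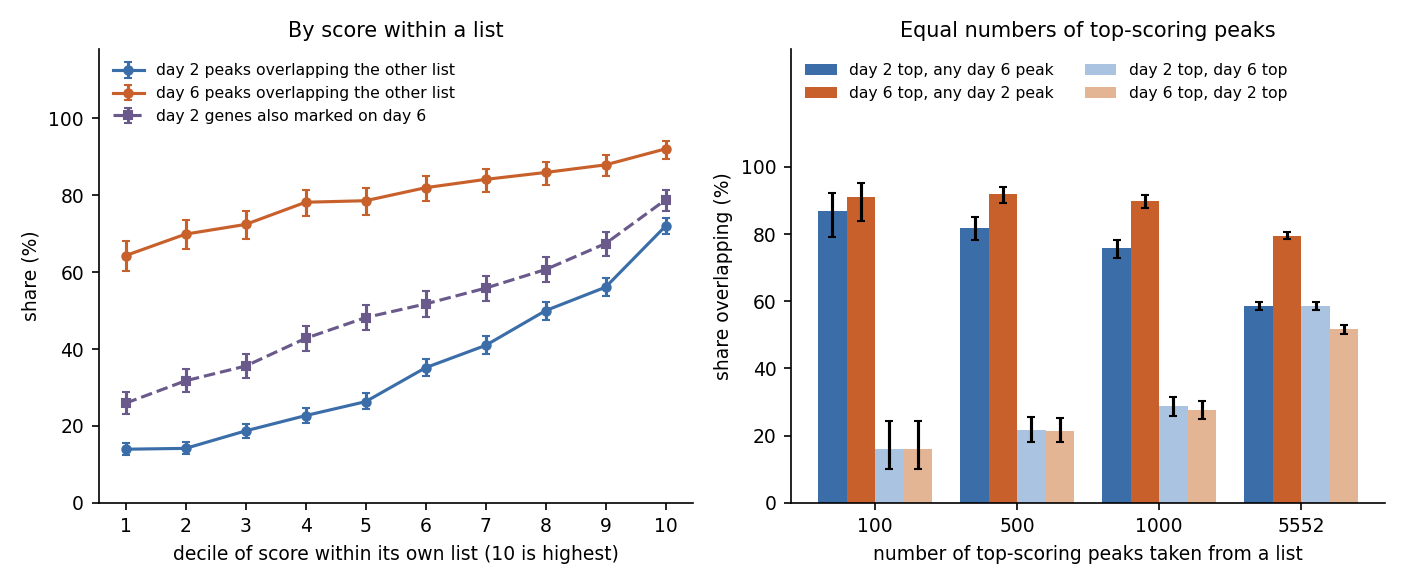
Left, share (percent, 95% Wilson intervals) of day 2 peaks and day 6 peaks overlapping the other list, and of day 2 genes marked again on day 6, by decile of score within the own list; all 3 rise, the genes from 25.9% to 78.8% and the day 6 peaks from 64.3% to 92.1%. Right, for equal numbers of top-scoring peaks, the share overlapping any peak of the other day (dark) or its equally many top-scoring peaks (light), which at 100 peaks is 87.0% and 91.0% against 16.0%.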

How the data were processed

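The peak lists hold H3ac regions from 1 ChIP library on day 2 and 1 on day 6. The authors deposited each peak with a score from their peak caller, and no source used here gives the scale or the caller's settings. Reads were aligned with Bowtie 0.12.8 to mm10, per the submitters' processing notes, and the input reads were not analysed here. The number and width of peaks can depend on depth and on the caller's settings, and these cannot be told apart from the day.

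Starts were written 1-based. Peaks were intersected at a minimum of 1 bp and assigned to 21887 protein-coding genes of the RefSeq table (GRCm38.p6) within 1 kb of either end. Start sites and promoters came from 21263 RefSeq promoter entries of 17492 genes. The start-site profiles, the starts inside day 6 peaks and the promoter sequences used the most upstream for each gene. The counts of start sites in peaks and in gaps between peaks used every entry. Exon, intron and UTR positions were not used here. Counts used Python 3.11.15 with pandas 2.3.3, numpy 2.4.6 and scipy 1.17.1, and the span counts were tested on simulated peaks with planted overlaps. No significance test was run, since each day has 1 library. Alternatives were equal numbers of top-scoring peaks, the higher-scoring 50% of each list, other windows and overlap minimums, peaks of 1 width and joined peaks.

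The members and gene lists were chosen with earlier results of these data known. Genes were named by rule: 22 whatever their values, the 10 highest-scoring with a peak at 1 end and none of the other day within 10 kb, the 5 highest marked on both days, those at the 8 day 6 peaks spanning most day 2 peaks, and up to 4 of each list in each class by score. Any other gene, the microRNA and small nucleolar RNA counts and the start-site profiles were chosen after values were seen. Some genes that the rule names are not reported here.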

Additional observations from a re-analysis of the deposited data

How the results depend on the processing

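The share of day 2 peaks overlapping a day 6 peak was 35.01% and became 58.6% with equal numbers of top-scoring peaks, 30.3% with the higher-scoring 50% of each list, 38.3% when peaks within 1 kb counted, 34.3% at an overlap of 50% of the narrower peak, 25.4% with all peaks at the median day 2 width and 31.1% with peaks under 1 kb apart joined. For day 6 peaks, 79.6% became 51.7%, 74.9%, 83.8%, 73.0% and 82.0% under the same settings without the overlap minimum, which left it at 79.1%. Day 6 peaks spanning 2 or more, 25.1%, became 6.56%, 17.7%, 37.6%, 23.7%, 6.36% and 1.67% under the 6 settings in the first order, so that joining or narrowing the peaks, by construction, removed most spans. With equal numbers, genes marked on day 2 only fell from 4449 to 1946 and those on day 6 only rose from 667 to 1992. The share of day 2 genes marked again, 49.9%, became 61.5% with equal numbers, 33.8% with the higher-scoring 50%, 52.1% with a peak anywhere in the gene or within 10 kb and 46.4% at the median day 2 width. Of all values recomputed, 327 stayed within their interval or 1.5 times their count and 182 moved, and the cause was not tested. No paired analysis was possible because each day has 1 library. The depth of the libraries is unknown from the peak lists, so a missing peak may be a matter of depth.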
